A study of Homo sapiens with 6 samples.

Results

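The BCL2 family decides whether a cell keeps or loses the integrity of its outer mitochondrial membrane. The genes described here are 10 of the 31142 genes in the deposited table, chosen by symbol as the pro-survival genes BCL2, BCL2L1 and MCL1, the effector genes BAX and BAK1, and the BH3-only genes BID, BAD, BBC3, PMAIP1 and BCL2L11. Each symbol was listed under 1 identifier, and all 10 were found. The RNA came from 6 samples in 2 groups of 3, taken at 96 h, with the label SKM-1, a human acute myeloid leukemia line derived from a myelodysplastic syndrome. The S34F group was labelled as carrying U2AF1 with the S34F mutation, and the WT group as carrying wild-type U2AF1. U2AF1 is the small subunit of the factor that recognises the end of an intron, and S34F is a recurrent mutation of it in myelodysplastic syndromes. Per the methods, both forms were tagged with FLAG and brought in by a lentiviral vector with an Ubi promoter, a green fluorescent protein and puromycin resistance, so the cells also keep their own U2AF1. The titles of the WT samples begin with letters that the study also uses for its negative controls, and its methods describe a vehicle control, so that the nature of the WT group rests on the titles. The study calls the RNA samples independent, but nothing in the labels says whether the 3 of a group were separate cultures, and the p-values below measure the spread between these samples, which may be technical.

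The family works by binding between its members. BCL2, BCL-XL (the main product of BCL2L1) and MCL-1 hold the effectors in check. BAX and BAK, once active, form the pores through which cytochrome c leaves mitochondria. The BH3-only proteins sense stress and act upstream: BIM (BCL2L11), PUMA (BBC3) and truncated BID bind all pro-survival proteins, BAD prefers BCL2 and BCL-XL, and NOXA (PMAIP1) prefers MCL-1. BCL-XL is known as the survival factor of the erythroid lineage, and MCL-1 and BCL2 are known for their part in myeloid leukemia. Much of this control lies in the proteins, in their splice forms, phosphorylation and turnover, which summed RNA levels per gene do not show. The study followed Bcl-2, Bax and Bim as proteins, and reported Bim and Bax as higher and Bcl-2 as lower with S34F. It also measured Bim RNA by PCR and named the level of Bim among the apoptosis changes in its RNA-seq. The comparison here asks whether the RNA of these genes and their relatives differed between S34F and WT.

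Values are FPKM, read fragments divided by transcript length and by the library's mapped total, as deposited. The table holds no counts. Depth was estimated as 20.5 to 26.1 M fragments per library from genes with a single exon and a single transcript. The most common product of FPKM and length among them was taken as that of 1 fragment, which was not checked. U2AF1 itself had 9.18 to 9.48 FPKM in the S34F libraries and 7.65 to 8.70 FPKM in the WT libraries, and a gene-level value cannot tell the alleles apart. Most marker genes went against the label of a monocytic myeloid line: the 12 erythroid markers had a median of 551 FPKM, with HBE1, the embryonic beta-like globin, at 5461 FPKM on average, while the 12 monocytic and myeloid markers had a median of 0.552 FPKM and 7 of them were under 1 FPKM. MPO and FCN1, which define myeloid and monocytic cells, reached at most 0.0115 and 0.0102 FPKM in a library, while 3 of the list, CD68, LYZ and SPI1, averaged 46.3, 15.7 and 10.6 FPKM. Of 6 lymphoid markers 3 were in the table, all under 1 FPKM. The summed erythroid markers ran from 12130 to 13890 FPKM in S34F and from 11740 to 12830 FPKM in WT, and the summed monocytic and myeloid markers from 58.0 to 84.0 and from 80.0 to 99.3 FPKM. The libraries are therefore called S34F and WT below, without a cell type. S34F replicate 3 stood apart: it had the highest or the lowest value of the 6 libraries in 58.7% of the 10942 genes with a mean of at least 1 FPKM. WT replicate 3 did so in 35.7%, near the 33.2% of S34F replicate 1, and the remaining libraries in 20.8% to 29.7%. Results that rest on these libraries are given with and without them.

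Of the members, BCL2L11 varied most between libraries, and the study discusses it as a target of FOXO3a, a forkhead transcription factor whose binding to promoters it mapped. Its promoter window is shown for that reason. The RefSeq window of GRCh38.p14 at chr2:111120664-111120963, plus strand, holds 250 bases before and 50 bases from an annotated start, and the capitals mark the forkhead letters GTAAACA, which begin at position -223 counted from the start.

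BCL2L11 promoter: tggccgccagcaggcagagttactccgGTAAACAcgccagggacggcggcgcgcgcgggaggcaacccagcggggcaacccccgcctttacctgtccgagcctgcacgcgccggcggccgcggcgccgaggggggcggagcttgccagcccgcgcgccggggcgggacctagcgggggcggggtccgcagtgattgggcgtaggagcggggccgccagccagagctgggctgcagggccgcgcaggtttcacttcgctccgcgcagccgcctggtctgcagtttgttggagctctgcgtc

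GTAAACA was searched on both strands in the 15 RefSeq windows of 9 members. It was present in the BCL2L11 window alone among these, against 3.42% of all 35116 windows of this length. The STAT letters TTCNNNGAA, the GATA letters AGATAA and the cyclic AMP response letters TGACGTCA were in 0 of the 15 windows, against 7.66%, 10.3% and 1.85% of all windows. A match is a run of letters and does not show binding. MCL1 was not matched.

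The study's primers for Bim RNA are shown because they mark which part of BCL2L11 its PCR reads.

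Bim forward: tcccacttccaccagcaccatag

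Bim reverse: gcactcataaggagcaggcacag

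Both primers matched 8 of the 25 BCL2L11 transcripts of GENCODE 29 and no transcript of another gene. They bound a stretch of 150 bases at chr2:111165462-111165611 of GRCh38, downstream of the stop codon in all 8 transcripts, in the 3′ UTR. The gene-level FPKM sums over all forms of BCL2L11, of which the deposited table lists 21, so the PCR and the FPKM do not read the same set of transcripts.

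The members fell into 3 tiers of RNA level per length. BCL2L1, BAX, BAK1 and MCL1 averaged 48.7, 38.1, 31.6 and 31.5 FPKM over the 6 libraries. The ranges of neighbours in this order overlapped, and MCL1 was the highest member in S34F replicate 3 but ranked 4 in 4 other libraries. The second tier held BBC3, BID, BAD, PMAIP1 and BCL2L11, at 9.47, 8.12, 7.78, 7.64 and 5.48 FPKM. MCL1 lay above BBC3 in 6 of 6 libraries with ranges apart, by 3.33-fold on the means, while the neighbours within the second tier overlapped. BCL2 was last in every library at 0.151 FPKM, 36.3-fold under BCL2L11 on the means, again with ranges apart. Among the pro-survival genes, RNA was thus almost entirely BCL2L1 and MCL1.

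**Figure D1:**
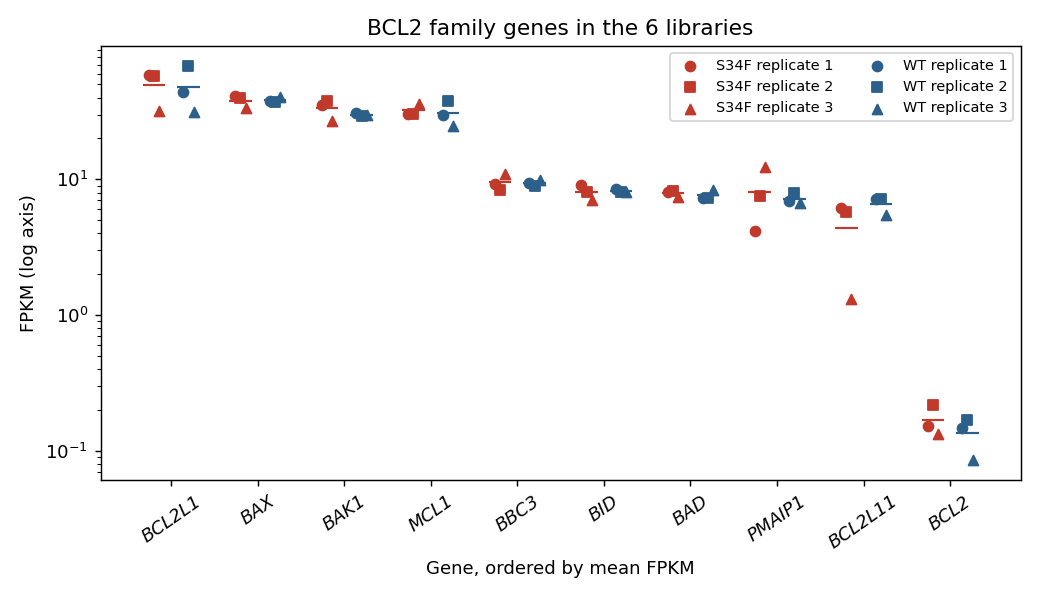
FPKM on a log axis for the 10 genes, ordered by mean level, with a symbol for each S34F (red) and WT (blue) library and a bar for each group mean. BCL2L1, BAX, BAK1 and MCL1 form the upper tier, BCL2 lies lowest at 0.0856 to 0.218 FPKM, and the S34F replicate 3 triangle of BCL2L11 sits at 1.32 FPKM.

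S34F and WT did not differ by test in any of the members. The comparison was made by limma on log2(FPKM + 1) over the 10942 genes with a mean of at least 1 FPKM, which kept 9 members and left out BCL2. On this scale a fold change understates the change of low genes. Under the limits of a 1.5-fold change together with unadjusted p under 0.05, 0 of the 9 were called, where 0.585% of all genes tested were. With an unadjusted p under 0.05 alone, again 0 of the 9 were called, against 2.39% of all genes, or 262 genes. With an adjusted p under 0.05 the count was 0 of 9 and 0.0% of all genes, and every member had an adjusted p of 1 from limma with Benjamini-Hochberg adjustment. In 0 of the 9 members did the values of the groups lie apart, against 7.38% of all genes tested. With the replicate number as a block, 0 of 9 had an unadjusted p under 0.05, against 4.05% of all genes. Of the 9 members, 6 were higher and 3 lower in S34F. Their median log2 fold change was 0.04, and that of all genes tested was 0.01. The intervals differed in width between members and set what this comparison could show. Those of BAX, BID, BAD and BBC3 lay within a 1.5-fold change in either direction, and so did those of MCL1 and BAK1, while those of BCL2L1, PMAIP1 and BCL2L11 reached beyond it.

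**Figure D2:**
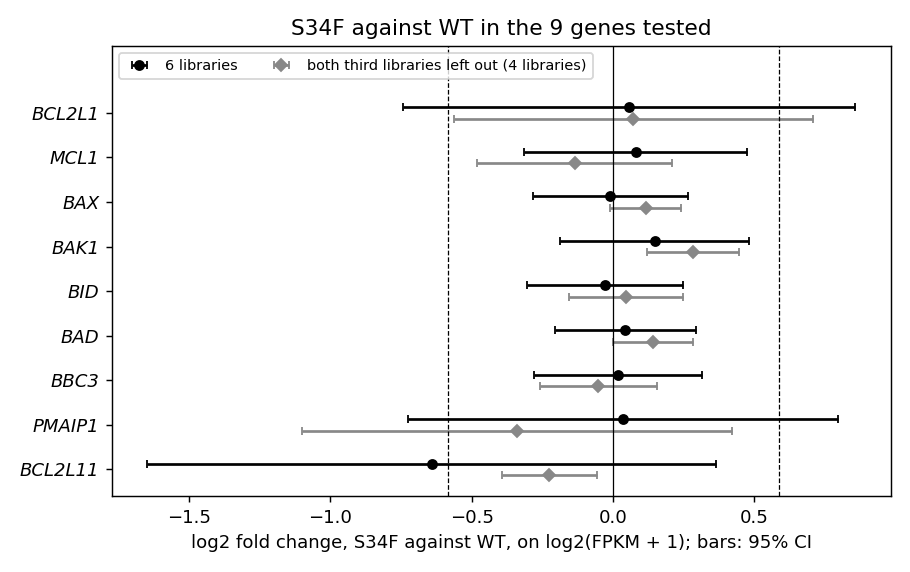
Log2 fold change of S34F against WT with its 95% confidence interval from limma, on log2(FPKM + 1), for 6 libraries (black circles) and for the 4 libraries left without replicate 3 of both groups (grey diamonds); dashed lines mark 1.5-fold. All 9 black intervals cross 0, and BCL2L11 has the lowest estimate, at -0.64, which is -0.23 in the 4 libraries.

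Among the pro-survival genes, BCL2L1 (ENSG00000171552, GRCh38 chromosome 20 from 31664452 to 31723989 on the minus strand) had 58.3, 57.6 and 31.99 FPKM in S34F replicates 1, 2 and 3, and 44.1, 68.8 and 31.4 FPKM in WT replicates 1, 2 and 3. Replicate 3 was the lowest in both groups, and the S34F values all lay inside the WT range. The means were 49.3 ± 15.0 FPKM in S34F and 48.1 ± 19.0 FPKM in WT (SD, n = 3 each), and the log2 fold change was 0.06 ± 0.34 (SE; limma unadjusted p = 0.871; p = 0.9 by exact two-sided permutation). Its 95% interval ran from 0.598-fold to 1.81-fold, the widest upper bound of the members. Only 2.74% of the genes tested had a larger SD on the log2 scale within WT. The antisense gene ABALON overlaps BCL2L1, and it had 13.5, 13.1 and 6.81 FPKM in the S34F libraries and 8.70, 11.3 and 9.66 FPKM in the WT libraries. It was lowest in S34F replicate 3, while BCL2L1 was lowest in WT replicate 3. Whether the libraries kept the strand is not given in the sources used here, so reads of the overlap could be assigned to either gene.

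MCL1 encodes a short-lived pro-survival protein (ENSG00000143384, chromosome 1 from 150574551 to 150579738, minus strand). It had 30.5, 30.4 and 35.9 FPKM in the S34F replicates and 29.9, 37.7 and 24.9 FPKM in the WT replicates. WT replicates 2 and 3 were the highest and the lowest of the 6, so the S34F values all lay inside the WT range. Its log2 fold change was 0.08 ± 0.17 (SE; limma unadjusted p = 0.647), with an interval from 0.804-fold to 1.39-fold. Without replicate 3 of both groups it was -0.14. BCL2 (ENSG00000171791, chromosome 18 from 63123346 to 63320128, minus strand) had 0.152, 0.218 and 0.133 FPKM in S34F and 0.148, 0.169 and 0.0856 FPKM in WT. All 6 values lay above the 0.0197 FPKM that 3 fragments would give over its longest transcript at the lowest depth, a limit that covers counting error only. That transcript has 7461 bases, and the limit is higher over shorter ones, of which the shortest has 572 bases. S34F was the higher of the libraries with the same number in 3 of 3, while the groups overlapped, and the exact permutation p was 0.5 (two-sided). In a fit without a filter on low values its log2 fold change was 0.04 ± 0.05 (SE; limma unadjusted p = 0.393, adjusted p = 0.999). At this level, adding 1 before the log shrinks both the change and its error, so this is not a precise absence of change. The ratio of the FPKM means was 1.25, and the log2 fold change was 0.196 with a pseudocount of 0.1 and 0.32 with 0.01.

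The effector BAX (ENSG00000087088, chromosome 19 from 48954815 to 48961798, plus strand) had 41.3, 39.6 and 33.3 FPKM in the S34F replicates and 37.5, 37.1 and 40.1 FPKM in the WT replicates. S34F replicates 1 and 3 were the highest and the lowest of the 6 libraries, so the WT values lay between them. The log2 fold change was -0.01 ± 0.12 (SE; limma unadjusted p = 0.932), with an interval from 0.821-fold to 1.2-fold. Without S34F replicate 3 it was 0.08 (limma unadjusted p = 0.325). With replicate 3 of both groups left out it was 0.12 ± 0.05 (SE; limma unadjusted p = 0.0641, adjusted p = 0.325), with an interval from 0.992-fold to 1.18-fold. The other effector, BAK1 (ENSG00000030110, chromosome 6 from 33572547 to 33580293, minus strand), had 35.4, 37.8 and 27.1 FPKM in S34F and 30.7, 29.2 and 29.6 FPKM in WT. The WT libraries of BAK1 were close together, at 29.8 ± 0.782 FPKM (SD, n = 3), and S34F replicates 1 and 2 lay above all of them while S34F replicate 3 lay below. Its log2 fold change was 0.15 ± 0.14 (SE; limma unadjusted p = 0.332; p = 0.4 by exact two-sided permutation). Without S34F replicate 3 it was 0.29 ± 0.07 (SE; limma unadjusted p = 0.010, adjusted p = 0.308), an interval of 1.07-fold to 1.39-fold, under the fold limit. In that fit 1 of the 9 members, BAK1, had an unadjusted p under 0.05, against 10.6% of all genes tested. The processed pseudogene BAK1P1, at 0.970 FPKM on average, could share reads with BAK1.

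The BH3-only gene BCL2L11 (ENSG00000153094, chromosome 2 from 111119378 to 111168447, plus strand) had 6.16, 5.75 and 1.32 FPKM in S34F replicates 1, 2 and 3, and 7.13, 7.11 and 5.43 FPKM in WT replicates 1, 2 and 3. S34F replicate 3 was far under the other 5 libraries, and WT replicate 3, the lowest of the WT libraries, lay under S34F replicates 1 and 2. S34F was lower than the WT library of the same number in 3 of 3. The log2 fold change was -0.64 ± 0.42 (SE; limma unadjusted p = 0.174; p = 0.3 by exact two-sided permutation), with an interval from 0.319-fold to 1.29-fold. With the replicate block the unadjusted p was 0.0727 from limma, with an interval from 0.387-fold to 1.06-fold. Without S34F replicate 3 the log2 fold change was -0.11 (unadjusted p = 0.426 from limma), and with replicate 3 of both groups left out it was -0.23 ± 0.06 (SE; limma unadjusted p = 0.0204, adjusted p = 0.218). In that last fit 2 of the 9 members, BAK1 (0.28, unadjusted p = 0.00874 from limma) and BCL2L11, had an unadjusted p under 0.05, against 16.9% of all genes tested, and neither passed the fold limit. The long noncoding gene MIR4435-2HG overlaps BCL2L11 on the other strand. It had 5.39 FPKM in S34F replicate 3 and 5.54 to 6.57 FPKM in the other libraries, without the drop of BCL2L11. FOXO3, picked after its values were seen because it encodes FOXO3a, had 4.68, 4.27 and 8.10 FPKM in S34F and 2.85, 2.77 and 4.80 FPKM in WT. FOXO3 was highest in S34F replicate 3, where BCL2L11 was lowest, but that library was extreme in 58.7% of all genes tested. A link between the RNA of FOXO3 and BCL2L11 was not tested. For FOXO3, S34F was higher than the WT library of the same number in 3 of 3. The FOXO3 groups overlapped because WT replicate 3 lay above S34F replicates 1 and 2. The FOXO3 means were 5.68 FPKM in S34F and 3.47 FPKM in WT. Its log2 fold change on log2(FPKM + 1) was 0.56 ± 0.26 (SE; limma unadjusted p = 0.0676, adjusted p = 1). The study, in its own test of this RNA-seq, lists FOXO3a as significantly upregulated. Its fold change is not on the scale used here, where adding 1 before the log understates the change of low genes.

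PMAIP1, which encodes NOXA (ENSG00000141682, chromosome 18 from 59899948 to 59904306, plus strand), had 4.18, 7.60 and 12.4 FPKM in the S34F replicates and 6.98, 7.93 and 6.75 FPKM in the WT replicates. S34F held both the lowest and the highest library, and the WT values lay inside that range. The means were 8.05 ± 4.12 FPKM in S34F and 7.22 ± 0.625 FPKM in WT (SD, n = 3 each), and the log2 fold change was 0.04 ± 0.32 (SE; limma unadjusted p = 0.913), with an interval from 0.606-fold to 1.74-fold. It was -0.30 without S34F replicate 3 and 0.39 without S34F replicate 1, so its direction was set by the library left out. BBC3, which encodes PUMA (ENSG00000105327, chromosome 19 from 47220822 to 47232766, minus strand), had 9.28, 8.34 and 11.03 FPKM in S34F and 9.42, 8.89 and 9.84 FPKM in WT. Its S34F replicates 3 and 2 were the highest and the lowest of the 6. Its log2 fold change was 0.02 ± 0.13 (SE; limma unadjusted p = 0.903).

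BAD and BID had the lowest SD of log2(FPKM + 1) over the 6 libraries among the 9 members tested, at 0.0813 and 0.106, close to the 0.109 of BAX. BID, whose product is cut by caspase-8 (ENSG00000015475, chromosome 22 from 17734138 to 17774770, minus strand), had 9.03, 8.12 and 7.02 FPKM in S34F and 8.45, 8.08 and 8.05 FPKM in WT. BAD, whose product is held inactive by phosphorylation (ENSG00000002330, chromosome 11 from 64269830 to 64284704, minus strand), had 8.07, 8.22 and 7.43 FPKM in S34F and 7.29, 7.29 and 8.36 FPKM in WT. In both genes the groups overlapped, and no library was more than 1.29-fold above another in BID or 1.15-fold in BAD. The log2 fold changes were -0.03 ± 0.12 for BID (SE; limma unadjusted p = 0.817) and 0.04 ± 0.11 for BAD (SE; limma unadjusted p = 0.69). BAD overlaps GPR137 on the other strand, which had 4.10 to 4.70 FPKM over the 6 libraries.

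**Figure D3:**
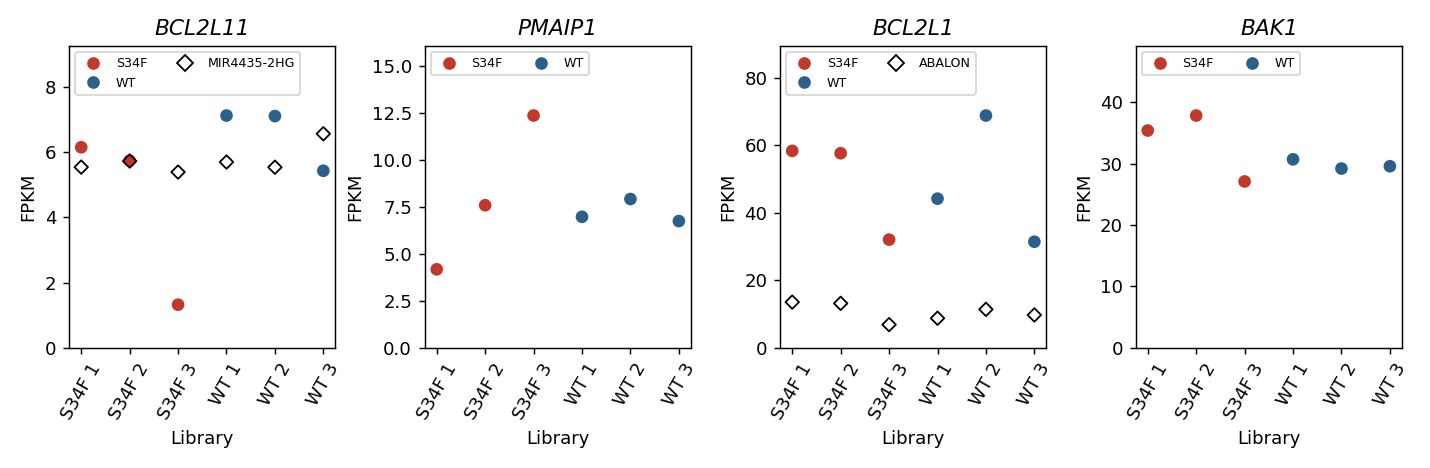
FPKM in each library for BCL2L11, PMAIP1, BCL2L1 and BAK1 (filled circles, S34F red and WT blue, axes from 0), with the genes on the opposite strand as open diamonds (MIR4435-2HG beside BCL2L11, ABALON beside BCL2L1). BCL2L11 drops to 1.32 FPKM in S34F replicate 3 while MIR4435-2HG stays at 5.39 FPKM, and BCL2L1 is lowest in replicate 3 of both groups.

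The spread of the members between libraries was uneven. The SD of log2(FPKM + 1) over the 6 libraries was 0.69 for BCL2L11, 0.47 for BCL2L1 and 0.44 for PMAIP1, and 1.91%, 5.44% and 6.43% of the genes tested varied more. BAD had an SD of 0.081, and 91.6% of the genes tested varied more. The median over the 9 members was 0.177, as it was over all genes tested. S34F replicate 3 had the highest or the lowest value in 6 of the 9 members, highest in PMAIP1 and BBC3 and lowest in BAX, BAK1, BID and BCL2L11, near the share of 58.7% over all genes. Within S34F the SD of BCL2L11 was 0.915 and that of PMAIP1 0.686, against 0.194 and 0.108 within WT.

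Sums by role were taken on the FPKM scale, as a description with no test. The 3 pro-survival genes summed to 88.9, 88.2 and 68.0 FPKM in the S34F libraries and to 74.1, 106.7 and 56.3 FPKM in the WT libraries. The 2 effectors summed to 76.7, 77.5 and 60.4 FPKM in S34F and to 68.2, 66.3 and 69.6 FPKM in WT. The 5 BH3-only genes kept a nearly constant sum, from 36.7 to 39.2 FPKM in S34F and from 38.4 to 39.3 FPKM in WT. In S34F replicate 3 the high PMAIP1 and the low BCL2L11 stood against each other in that sum.

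Ratios of FPKM between members that bind each other or share a role overlapped between the groups. The log2 ratio of BAX to BCL2L1 was -0.50, -0.54 and 0.06 in the S34F libraries and -0.24, -0.89 and 0.35 in the WT libraries, so BAX exceeded BCL2L1 in replicate 3 of both groups and in no other library. The log2 ratio of BCL2L1 to MCL1 was 0.94, 0.92 and -0.16 in S34F and 0.56, 0.87 and 0.34 in WT, below 0 only in S34F replicate 3. The log2 ratio of BCL2L11 to MCL1 was -2.31, -2.41 and -4.77 in S34F and -2.07, -2.41 and -2.19 in WT. That of PMAIP1 to MCL1 was -2.87, -2.002 and -1.53 in S34F and -2.10, -2.25 and -1.88 in WT. The log2 ratio of BAX to MCL1 ran from -0.11 to 0.44 in S34F and from -0.02 to 0.69 in WT, and that of BBC3 to BCL2L1 from -2.79 to -1.54 and from -2.95 to -1.67. Among the 6 libraries S34F replicate 3 thus had the lowest level of BIM RNA and the highest of NOXA RNA relative to MCL1.

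**Figure D4:**
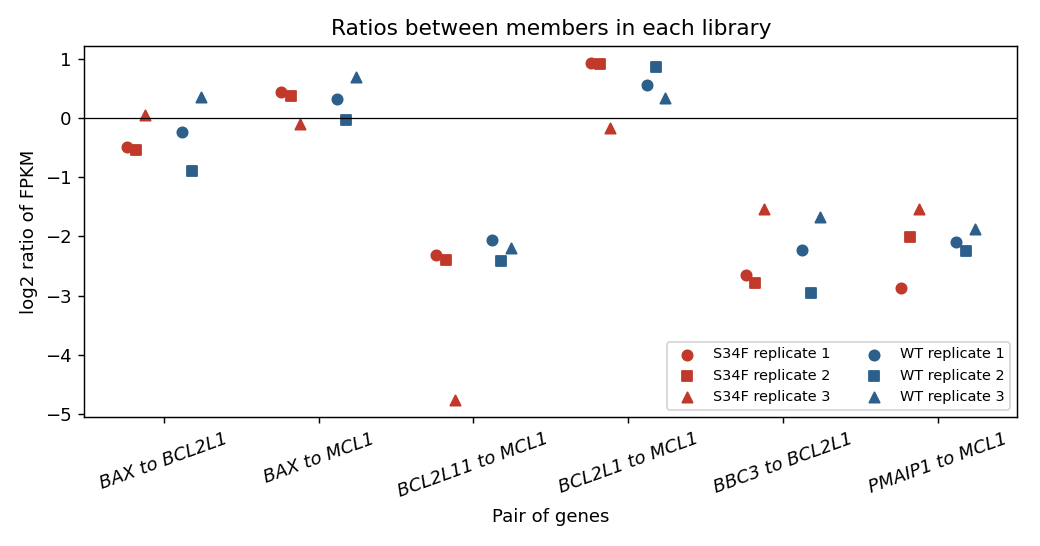
Log2 ratio of FPKM for 6 pairs of genes in each library, S34F red and WT blue, circles, squares and triangles for replicates 1, 2 and 3. The groups overlap in each pair, and BCL2L11 to MCL1 is -4.77 in S34F replicate 3 against -2.41 to -2.07 in the other 5 libraries.

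Among the genes most like BCL2L11 over the 6 libraries, by the mean absolute difference of centred log2(FPKM + 1), were IER2 and CCDC117, at 0.060 and 0.109. IER2, an immediate-early gene, had 33.9, 33.8 and 8.75 FPKM in S34F and 37.99, 37.8 and 29.5 FPKM in WT. That it was lowest in S34F replicate 3, as BCL2L11 was, follows from how it was chosen. CCDC117 had 5.37, 5.15 and 1.13 FPKM in S34F and 4.91 to 5.48 FPKM in WT.

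Of 13 other BCL2 family genes, 12 were in the table and 7 were tested. BNIP3, a mitochondrial BH3-containing protein linked to mitophagy and hypoxia, was the only 1 of the 7 with an unadjusted p under 0.05, against 2.39% of all genes tested. It had 7.22, 7.72 and 8.20 FPKM in S34F and 5.81, 5.81 and 6.78 FPKM in WT, with the groups apart, and a log2 fold change of 0.29 ± 0.11 (SE; limma unadjusted p = 0.033, adjusted p = 1), under the fold limit. BCL2L12 and BCL2L13 were the most abundant of this list, at 28.9 and 15.8 FPKM, with log2 fold changes of 0.02 and -0.03. The median of the list was 0.06, against 0.01 over all genes tested. BCL2A1, BCL2L10, BIK, HRK and BCL2L15 averaged under 1 FPKM and were not tested.

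The list of mitochondrial apoptosis genes held 16, among them the VDAC channels and inhibitors of apoptosis such as XIAP, so its counts mix roles. Of these 16 genes, 13 were tested. None had an unadjusted p under 0.05 from limma, against 2.39% of all genes tested. Of the 13, 11 were higher and 2 lower in S34F, where 5973 of all 10942 genes tested were higher, and their log2 fold changes ran from -0.20 to 0.52 with a median of 0.09, against 0.01 over all genes. CYCS, which encodes cytochrome c, and VDAC2, an outer-membrane channel that binds BAK, were the most abundant, at 84.7 ± 7.14 and 82.6 ± 10.4 FPKM in S34F and 77.5 ± 7.66 and 73.1 ± 3.55 FPKM in WT (SD, n = 3 each). APAF1, XIAP and BIRC3 averaged under 1 FPKM. Of 10 genes whose proteins act on members, such as the MCL-1 ubiquitin ligase HUWE1 and the 14-3-3 proteins that hold BAD, 9 were tested, 0 had an unadjusted p under 0.05, and the median log2 fold change was 0.05. The highest of these were YWHAQ and YWHAE, at 79.4 and 51.9 FPKM, with log2 fold changes of 0.20 and -0.02. Of 9 transcription factors known to act on genes of the family, 8 were tested, 0 had an unadjusted p under 0.05, and the median was -0.05. GATA1, the erythroid factor that acts on BCL2L1, averaged 185 FPKM and was lowest in S34F replicate 3, at 142 FPKM. ATF4, the stress factor that acts on PMAIP1, averaged 154 FPKM and was highest in S34F replicate 3, at 195 FPKM, the library in which PMAIP1 was also highest. That library was extreme in 58.7% of all genes tested. Within WT the order differed: ATF4 was highest in replicate 3, at 171 FPKM, where PMAIP1 was lowest, at 6.75 FPKM. The part of GATA1 and ATF4 in the levels of these genes was not tested.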

How the data were processed

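RNA-seq was analysed from 6 libraries, 3 S34F and 3 WT, grouped by whether the title gives mutant or wild-type U2AF1. The authors deposited FPKM per gene and library in 1 table whose name speaks of raw counts, although 0 of its 145389 values above 0 exactly equal a whole number. StringTie and edgeR are named in the submitters' processing notes. The aligner, genome build and annotation are not given in the sources used here. The deposited fold changes, p-values and q-values were not used.

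limma 3.58.1 in R 4.3.3 was fitted to log2(FPKM + 1) with eBayes and its trend option, over genes with a mean of at least 1 FPKM, two-sided, with Benjamini-Hochberg adjustment over all genes tested. The script was tested on simulated data. The members and lists were chosen with earlier results of these data known. All members were named; from each list, the 2 highest by mean FPKM and any with unadjusted p under 0.05; and the 3 genes closest to BCL2L11, the member of largest SD, of which 1 is not reported here. Alternatives were other scalings, pseudocounts, filters and variance options, the replicate block and libraries left out. Exact permutation tests over 20 splits cannot give a two-sided p under 0.1. Coordinates came from GENCODE 29 on GRCh38, and promoter windows from RefSeq.

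Deviations from the group mean correlated at 0.212, 0.174 and 0.38 between the libraries numbered 1, 2 and 3. S34F replicate 2 with WT replicate 1 gave 0.197, and S34F replicate 1 with WT replicate 2 gave 0.134. These values do not tell replicates 1 and 2 apart, so whether the numbers pair the libraries is not settled. The p-values above come from fits without a replicate block unless the block is named.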

Additional observations from a re-analysis of the deposited data

How the results depend on the processing

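No member passed the fold limit with an unadjusted p under 0.05 in any alternative run. The count of all genes past these limits, 64, was 122 with a pseudocount of 0.1 and 122 with 0.01, 22 with a mean of at least 5 FPKM, 183 with replicate 3 of both groups left out, 262 without a fold limit, and 66 to 180 with a library left out in turn, highest without S34F replicate 3. The count with an adjusted p under 0.05, 0 in the fit of 6 libraries (262 at an unadjusted p), was 8 with replicate 3 of both groups left out and 0 to 3 with a library left out in turn, namely 1 without S34F replicate 1 and 3 without WT replicate 3. Members with an unadjusted p under 0.05 numbered 2 of 9 with replicate 3 of both groups left out, against 16.9% of all genes tested. With a library left out in turn they numbered 0 to 1, with 1 of 9 without S34F replicate 3, against 10.6% of all genes tested. With the replicate block, which pairs libraries by number, 87 genes passed the limits and no member's call changed. Of 163 alternatives for the log2 fold changes of the members, 144 kept their direction without passing the fold limit together with an unadjusted p under 0.05 (for BCL2, which is not in the filtered fit, moved by less than 1 SD), 17 reversed, and 2 moved, both BCL2, to 0.196 with a pseudocount of 0.1 and 0.32 with 0.01. With replicate 3 of both groups left out, MCL1 was -0.14, BAX 0.12, BID 0.0458, BBC3 -0.0514 and PMAIP1 -0.34. Quantile normalization gave BBC3 -0.000904. With a library left out in turn, the log2 fold change ran from -0.21 to 0.35 for BCL2L1, -0.0599 to 0.23 for MCL1, -0.0705 to 0.0815 for BAX, -0.10 to 0.0567 for BID, -0.0829 to 0.0996 for BBC3 and -0.30 to 0.39 for PMAIP1, and for BCL2L11 from -0.93 to -0.11 without reversing. The cause of these reversals was not tested.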
